A study of Mus musculus with 13 samples.

Results

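The 32 genes examined here serve glucose transport and glycolysis, the export or diversion of its products, and the response to low oxygen. They were taken by gene symbol from the deposited array table by a rule that uses no signal, although the list was drawn up with earlier results of these data known. Of the 32, 30 had a row among the 19505 gene symbols of the table, and Eno1 and Gpi1 were not analysed here. A gene was tested if its signal lay above the array's median on at least 4 arrays, which 29 of the 30 did and which left 10601 genes in all. Car9, a carbonic anhydrase of the cell surface, lay below the median on all 13 arrays and was not tested.

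The signals are from whole bone marrow of C57Bl/6J mice that had been irradiated with 7 Gy and had received LSK cells, the primitive blood-forming cells of mouse marrow, from Cas9 knock-in donors. The BRSST+sgEzh2 group (4 arrays) received cells with a guide combination named BRSST plus a guide against Ezh2. The BRSST+sgLuc group (5 arrays) received cells with the same combination plus the luciferase guide, and the sgLuc group (4 arrays) cells with the luciferase guide alone. All groups share Cas9, irradiation and transplantation. The labels do not spell out BRSST and give no age. Marrow was taken at leukemia or after 6 months, and which of these applies to an array was not given in the sources used here. The labels do not state that every array is a separate mouse, so p-values cover the spread between these arrays, which may be technical.

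Glycolysis splits glucose into pyruvate. Hexokinases trap glucose in the cell, phosphofructokinase commits it to the pathway, and lactate dehydrogenase and the monocarboxylate transporter dispose of the end product when it does not enter mitochondria. When oxygen falls, the prolyl hydroxylases that mark hypoxia-inducible factor (HIF) for destruction slow down, and HIF then switches on many glycolytic genes and also the hydroxylase genes Egln1 and Egln3 themselves. Blood-forming cells live in marrow that is poor in oxygen, and neutrophils, which are abundant in marrow, depend largely on glycolysis.

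HIF binds DNA at a short core, ACGTG or GCGTG, close to many of its target genes, so 5 of the 8 members that changed are shown with the 250 bases before their start sites. The sequences are RefSeq's, on build GRCm38.p6, each 5′ to 3′ on the strand of its gene, with every match to either core in capitals (CACGT and CACGC are the cores read on the opposite strand). The first 3 genes were higher in both BRSST groups than in sgLuc, and the last 2 were lower in BRSST+sgLuc than in sgLuc.
Egln3 (chr12:54203875-54204124, minus strand): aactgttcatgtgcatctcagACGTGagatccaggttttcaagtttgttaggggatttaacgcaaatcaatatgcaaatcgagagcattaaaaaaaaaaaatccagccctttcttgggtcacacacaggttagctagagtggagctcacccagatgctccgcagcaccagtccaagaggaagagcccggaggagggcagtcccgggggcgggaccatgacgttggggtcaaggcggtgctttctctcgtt
Egln1 (chr8:124949255-124949504, minus strand): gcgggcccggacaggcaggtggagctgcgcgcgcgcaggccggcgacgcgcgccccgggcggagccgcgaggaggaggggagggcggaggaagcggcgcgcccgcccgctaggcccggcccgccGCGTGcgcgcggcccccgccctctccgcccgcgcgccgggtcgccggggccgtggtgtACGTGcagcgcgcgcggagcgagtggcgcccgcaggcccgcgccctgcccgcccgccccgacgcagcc
Higd1a (chr9:121857797-121858046, minus strand): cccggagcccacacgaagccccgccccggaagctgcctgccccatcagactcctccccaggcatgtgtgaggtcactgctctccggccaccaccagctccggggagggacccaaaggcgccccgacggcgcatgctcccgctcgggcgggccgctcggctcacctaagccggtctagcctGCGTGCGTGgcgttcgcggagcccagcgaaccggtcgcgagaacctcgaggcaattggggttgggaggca
Hk2 (chr6:82774455-82774704, minus strand): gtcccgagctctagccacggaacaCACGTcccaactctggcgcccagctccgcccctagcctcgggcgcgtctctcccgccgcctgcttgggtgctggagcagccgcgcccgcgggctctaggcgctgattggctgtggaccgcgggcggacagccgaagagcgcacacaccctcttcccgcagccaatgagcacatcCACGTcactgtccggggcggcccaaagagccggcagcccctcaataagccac
Slc16a3 (chr11:120948817-120949066, plus strand): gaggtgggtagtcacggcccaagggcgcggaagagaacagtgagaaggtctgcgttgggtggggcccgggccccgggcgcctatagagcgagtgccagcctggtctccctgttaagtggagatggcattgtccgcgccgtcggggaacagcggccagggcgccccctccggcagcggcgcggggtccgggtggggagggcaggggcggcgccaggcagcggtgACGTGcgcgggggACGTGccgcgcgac
Egln3 held 1 match, which began at -229 counted from the start site. In Egln1 the matches began at -126 and -68, in Higd1a they overlapped at -70 and -66, in Hk2 they began at -226 and -52, and in Slc16a3 at -27 and -14.

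Over windows of 300 bases (250 before and 50 after the start), 28 of the 30 members had at least 1 RefSeq window, 40 in all. Slc2a3 and Ndrg1 had none in the table used. ACGTG was in 65.0% of the members' windows, against 19.6% of all 32851 windows, and GCGTG was in 52.5%, against 32.4%. Both strands were searched, and the palindrome CACGTG counts for ACGTG on either strand. At least 1 core was in 82.5% of the members' windows and 43.8% of all windows. The members were listed as glycolysis and hypoxia genes, many of which HIF switches on, so these higher shares are no independent result. Windows of the same gene can overlap, as in Aldoa, and were counted separately. The 7 members with a window that changed in BRSST+sgLuc against sgLuc all held a core in the 250 bases, 3 of them higher and 4 lower. At least 1 core was in a 300-base window of 27 of the 28 members, changed or not, so a core does not set the changed members apart. A match is a description of these letters only.

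**Figure D1:**
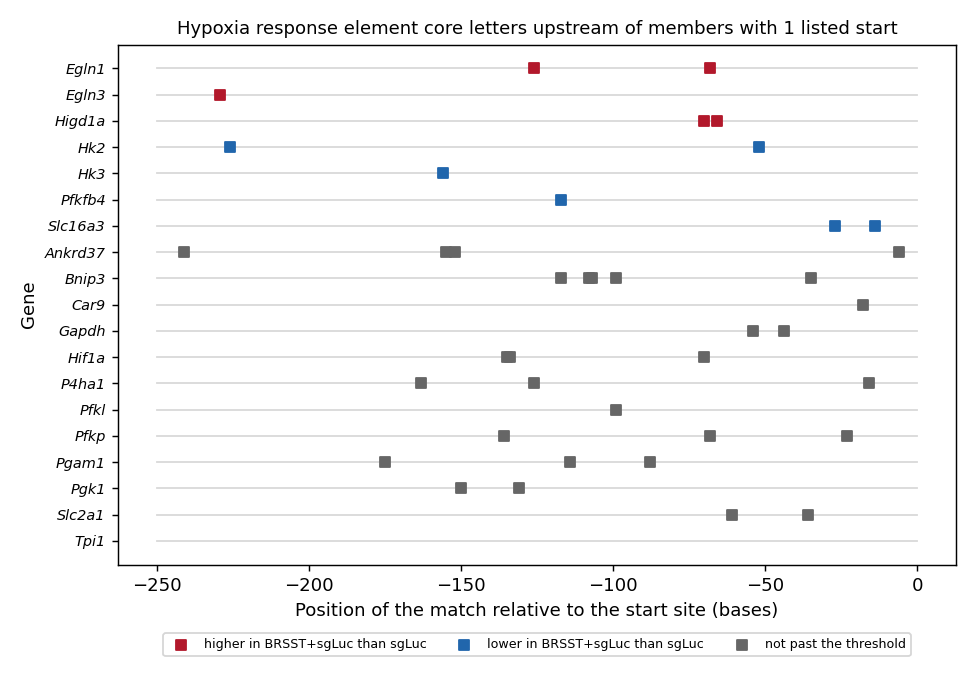
Position of the first base of each ACGTG or GCGTG match, on either strand, in the 250 bases before the start site (x axis, bases, start site at +1) for members with 1 RefSeq window (y axis). Colours mark members that were higher, lower or not past the threshold in BRSST+sgLuc against sgLuc. Matches lay at -229 in Egln3 and at -27 and -14 in Slc16a3, and higher and lower members both held them.

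Array medians lay between 7.19 and 7.32 on the log2 scale, and every signal between 3.23 and 13.75. The neutrophil granule genes Mpo, Elane, Ngp and Camp, which mark marrow, had signals from 12.87 to 13.74 on all arrays. Of the 7 marrow genes checked, the B lineage genes Cd79a and Vpreb1 were lower in BRSST+sgLuc than in sgLuc, and the mean of the 7 ran from 10.97 to 12.07 in BRSST+sgEzh2, from 10.9 to 11.69 in BRSST+sgLuc and from 11.73 to 12.07 in sgLuc. Ezh2, the target of the added guide, measured 8.08, 9.0, 8.81 and 9.22 in BRSST+sgEzh2, 9.86, 10.08, 10.46, 9.56 and 9.15 in BRSST+sgLuc, and 10.42, 10.48, 9.94 and 10.55 in sgLuc. It was lower in BRSST+sgEzh2 than in sgLuc (log2 -1.57 ± 0.28 SE, limma adjusted p = 0.00306), and missed the threshold against BRSST+sgLuc (-1.05 ± 0.26, limma adjusted p = 0.0808, or 0.0414 without BRSST+sgLuc replicate 5). A two-sided exact permutation test of Ezh2 gave p = 0.0238 against BRSST+sgLuc and p = 0.0286 against sgLuc. The Y-linked genes Uty and Kdm5d were high on 2 of 4 BRSST+sgEzh2, 2 of 5 BRSST+sgLuc and 4 of 4 sgLuc arrays. No label names a batch, but the running sample numbers in the submitters' descriptions go on through both BRSST groups and stand apart for sgLuc, so a batch effect on arrays cannot be told apart from sgLuc.

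Against sgLuc, single members passed in either direction in both BRSST groups, and the share of members that passed in BRSST+sgLuc was near that of all genes. Egln1, Egln3 and Higd1a were higher in both BRSST groups than in sgLuc, and Hk3 and Ndrg1 were lower in both. Hk2, Pfkfb4 and Slc16a3 were lower in BRSST+sgLuc than in sgLuc. The members tested from aldolase to lactate dehydrogenase passed in no comparison, and the enolase Eno1, which lies in this span, was not analysed. The comparisons of the BRSST groups with sgLuc share the sgLuc arrays, and both comparisons that involve BRSST+sgLuc share its arrays, so these results are not independent of each other.

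**Figure D2:**
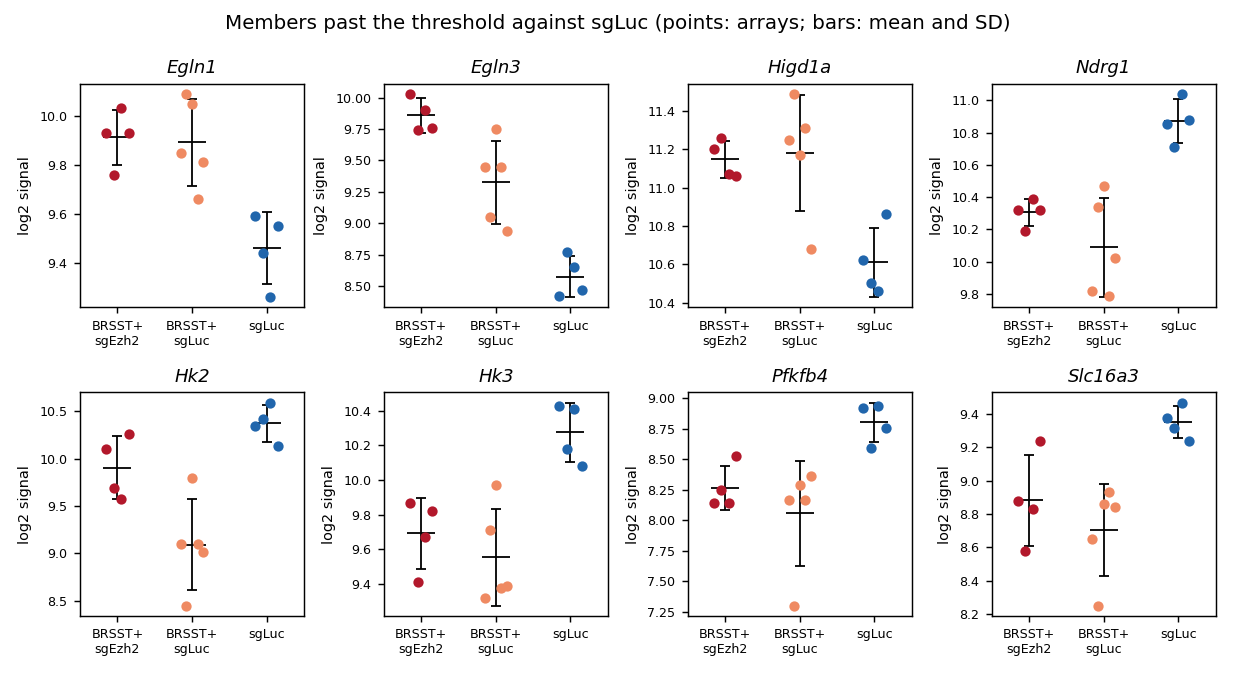
Log2 signal (y axis) on each array for the 8 members past the threshold in at least 1 comparison, with BRSST+sgEzh2, BRSST+sgLuc and sgLuc from left to right. Points are arrays, and bars are the mean and SD. All BRSST arrays lay above all sgLuc arrays for Egln1 and Egln3, and below them for Hk3 and Ndrg1.

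In BRSST+sgLuc against sgLuc, 8 of 29 members passed (27.6%), beside 22.5% of all 10601 genes. The members' share was thus near that of all genes. Of the 8, 3 were higher (10.8% of all genes were) and 5 lower (11.7% of all genes were). The groups did not overlap for 7 of the 29, that is 24.1%, against 18.9% of all genes. Of these, 2 were higher, against 9.09% of all genes, and 5 lower, against 9.82%. At an unadjusted p below 0.05 there were 11 members (37.9%), against 35.1% of all genes. The median difference over the members was log2 -0.08, against 0.01 over all genes, and 11 of 29 were above 0.

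Markers of marrow cell types moved alongside these differences, and in bulk marrow fewer cells of a type and less RNA per cell cannot be told apart. Of all genes, 11.7% fell and 10.8% rose in BRSST+sgLuc against sgLuc. In BRSST+sgEzh2 against sgLuc these shares were lower, 3.86% and 5.51%, so marker counts in the 2 comparisons are not on an equal footing. Of 9 mature neutrophil markers tested, 6 fell in BRSST+sgLuc against sgLuc and 2 in BRSST+sgEzh2 against sgLuc, with mean log2 signals per array of 12.1 to 12.44 in BRSST+sgEzh2, 12.02 to 12.21 in BRSST+sgLuc and 12.52 to 12.69 in sgLuc. Of 10 B lineage markers tested, 9 fell in BRSST+sgLuc and 3 in BRSST+sgEzh2 against sgLuc, and of 10 T and NK markers 7 and 1. The mean of the B lineage list ran from 6.76 to 8.69 in BRSST+sgEzh2, from 6.69 to 8.41 in BRSST+sgLuc and from 8.93 to 10.17 in sgLuc, and that of the T and NK list from 6.49 to 8.59, from 6.58 to 8.03 and from 8.33 to 8.72. Of 10 monocyte and macrophage markers, 5 fell in BRSST+sgLuc against sgLuc, 2 fell and 1 rose in BRSST+sgEzh2 against sgLuc, and 1, Mpeg1, rose in BRSST+sgEzh2 against BRSST+sgLuc. The mean of this list ran from 8.83 to 9.46 in BRSST+sgEzh2, from 8.03 to 9.24 in BRSST+sgLuc and from 9.34 to 9.51 in sgLuc. No other marker of any list passed in BRSST+sgEzh2 against BRSST+sgLuc, where 0.783% of all genes passed. Tested markers there had a median difference of 0.83 in the B lineage list (10 of 10 above 0) and 0.99 in the T and NK list (8 of 10). It was 0.73 for monocytes and macrophages (8 of 10) and -0.77 for the erythroid list (0 of 9). For mature neutrophil, neutrophil precursor, megakaryocyte and proliferation markers it was 0.03, 0.06, -0.07 and 0.09. Of 11 markers of granule-forming neutrophil precursors, Ctsg and Prtn3 rose and Ltf fell in both BRSST groups against sgLuc, and of 4 megakaryocyte and platelet markers Treml1 rose in BRSST+sgLuc against sgLuc. Of 9 erythroid markers, 4 rose in BRSST+sgLuc against sgLuc, and the mean of the list ran from 7.05 to 7.76 in BRSST+sgEzh2, from 7.73 to 8.65 in BRSST+sgLuc and from 7.1 to 7.47 in sgLuc. The list means also include markers that were not tested. They cover 12 erythroid, 12 B lineage, 12 T and NK and 11 monocyte and macrophage genes. Of 11 proliferation markers, Bub1 and Top2a fell in BRSST+sgLuc against sgLuc. Rhag, an erythroid marker counted here, lay above the array median only on BRSST+sgLuc arrays, and Il7r, a B lineage marker, only on sgLuc arrays, so they entered the test through the group where they were high. Others, such as Cd22, Vpreb3, Vpreb1, Cd3g, Cd8a, Zap70, Cx3cr1 and Mrc1, lay above it on all 4 sgLuc arrays and on at most 2 arrays of either BRSST group. For such markers the filter favours the direction counted, and the counts are a description only. The part of these shifts in the members' differences was not tested.

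Egln3, a prolyl hydroxylase of HIF that is itself a HIF target, measured 10.03, 9.74, 9.90 and 9.76 in BRSST+sgEzh2, 9.45, 9.05, 9.75, 9.45 and 8.94 in BRSST+sgLuc, and 8.42, 8.77, 8.65 and 8.47 in sgLuc. All 9 BRSST arrays lay above all sgLuc arrays, and BRSST+sgEzh2 and BRSST+sgLuc overlapped by a narrow margin, through replicate 2 of BRSST+sgEzh2 and replicate 3 of BRSST+sgLuc. It was higher by 0.75 ± 0.15 (log2, SE), or 1.68-fold, in BRSST+sgLuc than in sgLuc (limma adjusted p = 0.00401). In BRSST+sgEzh2 against sgLuc it was higher by 1.28 ± 0.16, or 2.43-fold (limma adjusted p = 0.00025). Both calls held in all 27 alternative fits.

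Egln1, the main prolyl hydroxylase for HIF in most cells, had signals of 9.93, 9.76, 10.03 and 9.93 in BRSST+sgEzh2, 9.85, 10.09, 10.05, 9.66 and 9.81 in BRSST+sgLuc, and 9.59, 9.44, 9.26 and 9.55 in sgLuc. The BRSST groups overlapped each other and lay wholly above sgLuc. The rise over sgLuc was 0.43 ± 0.11 (limma adjusted p = 0.0154), or 1.35-fold, in BRSST+sgLuc. With the Y-linked class of the arrays as a block it was 0.32 (limma adjusted p = 0.0818), and in BRSST+sgEzh2 0.36 (limma adjusted p = 0.0861). In BRSST+sgEzh2 the rise was 0.45 ± 0.12, or 1.36-fold (limma adjusted p = 0.0314), and this call ended without any 1 of BRSST+sgEzh2 replicates 1, 3 and 4 or sgLuc replicates 1, 2 and 3 (limma adjusted p up to 0.0889).

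Higd1a, a mitochondrial protein induced by low oxygen, measured 11.20, 11.26, 11.07 and 11.06 in BRSST+sgEzh2, 11.25, 11.49, 11.17, 11.31 and 10.68 in BRSST+sgLuc, and 10.62, 10.50, 10.46 and 10.86 in sgLuc. BRSST+sgLuc replicate 5 was the only BRSST array inside the sgLuc range. The gene was higher by 0.57 ± 0.15, or 1.48-fold, in BRSST+sgLuc than in sgLuc (limma adjusted p = 0.0138). It was higher by 0.53 ± 0.15, or 1.45-fold, in BRSST+sgEzh2 than in sgLuc (limma adjusted p = 0.045). That last call ended in 10 of the 13 fits that left out 1 array, all but those without BRSST+sgLuc replicates 2 and 5 and sgLuc replicate 4 (limma adjusted p from 0.0535 to 0.125), and with no filter on low signals (limma adjusted p = 0.0572).

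Ndrg1, a stress-response protein that low oxygen induces in many cell types, ran against these genes. Its signals were 10.32, 10.19, 10.39 and 10.32 in BRSST+sgEzh2, 9.82, 10.34, 10.47, 9.79 and 10.02 in BRSST+sgLuc, and 10.85, 10.71, 11.04 and 10.88 in sgLuc. Every BRSST array lay below every sgLuc array. The fall was -0.78 ± 0.14, or 1.72-fold, in BRSST+sgLuc (limma adjusted p = 0.00201) and -0.57 ± 0.15, or 1.48-fold, in BRSST+sgEzh2 (limma adjusted p = 0.031). The last call ended without any 1 of BRSST+sgEzh2 replicates 1, 2 and 4 or sgLuc replicates 1, 3 and 4 (limma adjusted p up to 0.0915).

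The other members of the oxygen response passed in no comparison. Hif1a, the oxygen-regulated subunit of HIF, averaged 9.27 ± 0.31 in BRSST+sgEzh2 marrow, 8.95 ± 0.41 in BRSST+sgLuc marrow and 9.25 ± 0.24 in sgLuc marrow (log2 signal, SD, n = 4, 5 and 4, as for all group means). Vegfa, the growth factor for blood vessels, averaged 10.54 ± 0.16, 10.54 ± 0.24 and 10.4 ± 0.18 in the same groups. P4ha1, a collagen prolyl hydroxylase, averaged 8.25 ± 0.28, 7.94 ± 0.25 and 7.96 ± 0.09 in these groups. Bnip3, a mitochondrial receptor for mitophagy, differed by 0.37 ± 0.13 between BRSST+sgEzh2 and sgLuc without passing (limma adjusted p = 0.109). Ankrd37, an ankyrin-repeat protein and HIF target, had signals of 10.08, 8.80, 10.21 and 9.56 in BRSST+sgEzh2, 9.09, 9.93, 8.85, 9.26 and 7.78 in BRSST+sgLuc, and 9.09, 8.53, 8.89 and 8.80 in sgLuc. Its arrays spread widely within both BRSST groups, and its difference of 0.84 ± 0.38 between BRSST+sgEzh2 and sgLuc did not pass (limma adjusted p = 0.19). Car9 averaged 6.92 ± 0.24 in BRSST+sgEzh2 marrow, 6.82 ± 0.17 in BRSST+sgLuc marrow and 6.76 ± 0.12 in sgLuc marrow.

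At the entry of glycolysis the hexokinases Hk2 and Hk3 were lower in BRSST+sgLuc than in sgLuc. Hk2, the inducible hexokinase of the mitochondrial surface, measured 10.10, 9.69, 9.57 and 10.26 in BRSST+sgEzh2, 9.10, 8.45, 9.80, 9.10 and 9.01 in BRSST+sgLuc, and 10.34, 10.42, 10.59 and 10.13 in sgLuc. All BRSST+sgLuc arrays lay below all sgLuc arrays, and BRSST+sgEzh2 overlapped both other groups. It was lower by 1.28 ± 0.22 on the log2 scale in BRSST+sgLuc than in sgLuc, or 2.42-fold, the largest difference of a member there (limma adjusted p = 0.00155). Hk3, a hexokinase prominent in myeloid cells, had signals of 9.87, 9.41, 9.67 and 9.82 in BRSST+sgEzh2, 9.32, 9.71, 9.97, 9.38 and 9.39 in BRSST+sgLuc, and 10.43, 10.18, 10.41 and 10.08 in sgLuc. Both BRSST groups lay wholly below sgLuc. The difference from sgLuc was -0.72 ± 0.15, or 1.65-fold, in BRSST+sgLuc (limma adjusted p = 0.00448). It was -0.58 ± 0.16, or 1.5-fold, in BRSST+sgEzh2 (limma adjusted p = 0.0347), a call that ended without any 1 of BRSST+sgEzh2 replicates 2 and 3 or sgLuc replicates 1, 2 and 3 (limma adjusted p up to 0.113). Hk1, the housekeeping hexokinase, averaged 8.13 ± 0.25 in BRSST+sgEzh2 marrow, 7.89 ± 0.73 in BRSST+sgLuc marrow and 8.25 ± 0.05 in sgLuc marrow and did not pass.

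The 2 glucose transporters among the members did not pass. Slc2a1 (GLUT1), the transporter of basal glucose uptake in most cells, measured 11.35, 11.07, 11.78 and 11.10 in BRSST+sgEzh2, 11.52, 11.47, 11.04, 11.62 and 11.14 in BRSST+sgLuc, and 10.95, 10.86, 10.58 and 11.08 in sgLuc. It differed by 0.49 ± 0.17 between BRSST+sgLuc and sgLuc, just outside the threshold (limma adjusted p = 0.0506), and passed without BRSST+sgEzh2 replicate 3, BRSST+sgLuc replicate 3 or BRSST+sgLuc replicate 5 (limma adjusted p = 0.0301, 0.0291 and 0.0363). Leaving out other arrays gave a limma adjusted p of up to 0.142. Slc2a1 passed in 9 of 27 alternatives, these 3 among them. Slc2a3 (GLUT3), a high-affinity transporter of neurons and white blood cells, had signals of 9.43, 9.68, 9.43 and 10.09 in BRSST+sgEzh2, 9.95, 7.77, 9.71, 9.43 and 10.18 in BRSST+sgLuc, and 10.43, 10.10, 9.98 and 10.43 in sgLuc. BRSST+sgLuc replicate 2 was far below the other arrays, and the difference of -0.83 ± 0.37 from sgLuc did not pass (limma adjusted p = 0.127). Without that array it was -0.42 and did not pass either.

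At the phosphofructokinase step, Pfkfb4 changed. Pfkfb4, a kinase and phosphatase that sets the level of the activator of phosphofructokinase, measured 8.14, 8.25, 8.14 and 8.53 in BRSST+sgEzh2, 8.17, 7.30, 8.29, 8.17 and 8.36 in BRSST+sgLuc, and 8.92, 8.59, 8.94 and 8.76 in sgLuc. All sgLuc arrays were the highest. The difference was -0.74 ± 0.19, or 1.68-fold, in BRSST+sgLuc (limma adjusted p = 0.0125), and -0.54 ± 0.20 in BRSST+sgEzh2, which did not pass (limma adjusted p = 0.111, or 0.0097 without BRSST+sgLuc replicate 2). Its relative Pfkfb3 averaged 9.27 ± 0.27 in BRSST+sgEzh2 marrow, 9.39 ± 0.32 in BRSST+sgLuc marrow and 9.45 ± 0.21 in sgLuc marrow. The platelet form Pfkp of phosphofructokinase differed by -0.77 ± 0.30 between BRSST+sgLuc and sgLuc without passing (limma adjusted p = 0.0831, or 0.0137 without BRSST+sgLuc replicate 5). Without BRSST+sgLuc replicate 2 the difference was -0.46 and did not pass. The muscle form Pfkm averaged 7.61 ± 0.42 in BRSST+sgEzh2 marrow, 7.71 ± 0.23 in BRSST+sgLuc marrow and 7.74 ± 0.23 in sgLuc marrow.

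The enzymes of the middle and end of the pathway that were tested among the members passed in no comparison, and the enolase Eno1 was not analysed. Gapdh, which makes the NADH of the pathway, averaged 12.50 ± 0.03 in BRSST+sgEzh2 marrow, 12.52 ± 0.05 in BRSST+sgLuc marrow and 12.41 ± 0.07 in sgLuc marrow. Pgam1, the phosphoglycerate mutase, averaged 11.88 ± 0.07, 11.86 ± 0.23 and 11.79 ± 0.10, and Pgk1, the phosphoglycerate kinase, 8.28 ± 0.19, 8.04 ± 0.30 and 8.17 ± 0.10 in the same groups. Signals near the top of the range of an array can be compressed. Pkm, the pyruvate kinase of most tissues, measured 12.27, 12.27, 12.17 and 12.25 in BRSST+sgEzh2, 12.27, 11.32, 12.25, 11.99 and 12.22 in BRSST+sgLuc, and 12.29, 12.08, 12.31 and 12.20 in sgLuc, so that 1 BRSST+sgLuc array stood low. The aldolases Aldoa (11.52 ± 0.05, 11.32 ± 0.34 and 11.59 ± 0.08) and Aldoc (7.45 ± 0.16, 7.31 ± 0.21 and 7.39 ± 0.33, in the same order of groups) did not pass. Tpi1, the triosephosphate isomerase, differed by 0.31 ± 0.12 between BRSST+sgEzh2 and sgLuc (limma adjusted p = 0.11).

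At the exit of the pathway Slc16a3 (MCT4), the transporter that exports lactate from glycolytic cells, measured 8.88, 8.58, 8.83 and 9.24 in BRSST+sgEzh2, 8.65, 8.25, 8.86, 8.93 and 8.84 in BRSST+sgLuc, and 9.38, 9.32, 9.47 and 9.24 in sgLuc. The BRSST+sgLuc arrays lay below all sgLuc arrays. The difference was -0.65 ± 0.15, or 1.56-fold, in BRSST+sgLuc (limma adjusted p = 0.00906), and -0.47 ± 0.16 in BRSST+sgEzh2, which did not pass (limma adjusted p = 0.0895, or 0.034 when BRSST+sgLuc replicate 2, and 0.0381 when BRSST+sgEzh2 replicate 4, was left out). Ldha, which turns pyruvate into lactate, averaged 10.15 ± 0.10 in BRSST+sgEzh2 marrow, 10.25 ± 0.13 in BRSST+sgLuc marrow and 10.45 ± 0.14 in sgLuc marrow. It differed by -0.30 ± 0.11 between BRSST+sgEzh2 and sgLuc without passing (limma adjusted p = 0.114), although these groups did not overlap. Pdk1, the kinase that keeps pyruvate out of mitochondria, measured 7.47, 7.5, 7.67 and 7.68 in BRSST+sgEzh2, 7.11, 6.65, 6.76, 7.60 and 8.47 in BRSST+sgLuc, and 6.64, 6.90, 6.18 and 7.10 in sgLuc. It lay below the array median on 0 of 4, 3 of 5 and 4 of 4 arrays of these groups, so it entered the test chiefly through the BRSST+sgEzh2 arrays, and its difference of 0.88 ± 0.32 from sgLuc did not pass (limma adjusted p = 0.108, or 0.0207 without BRSST+sgLuc replicate 5).

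**Figure D3:**
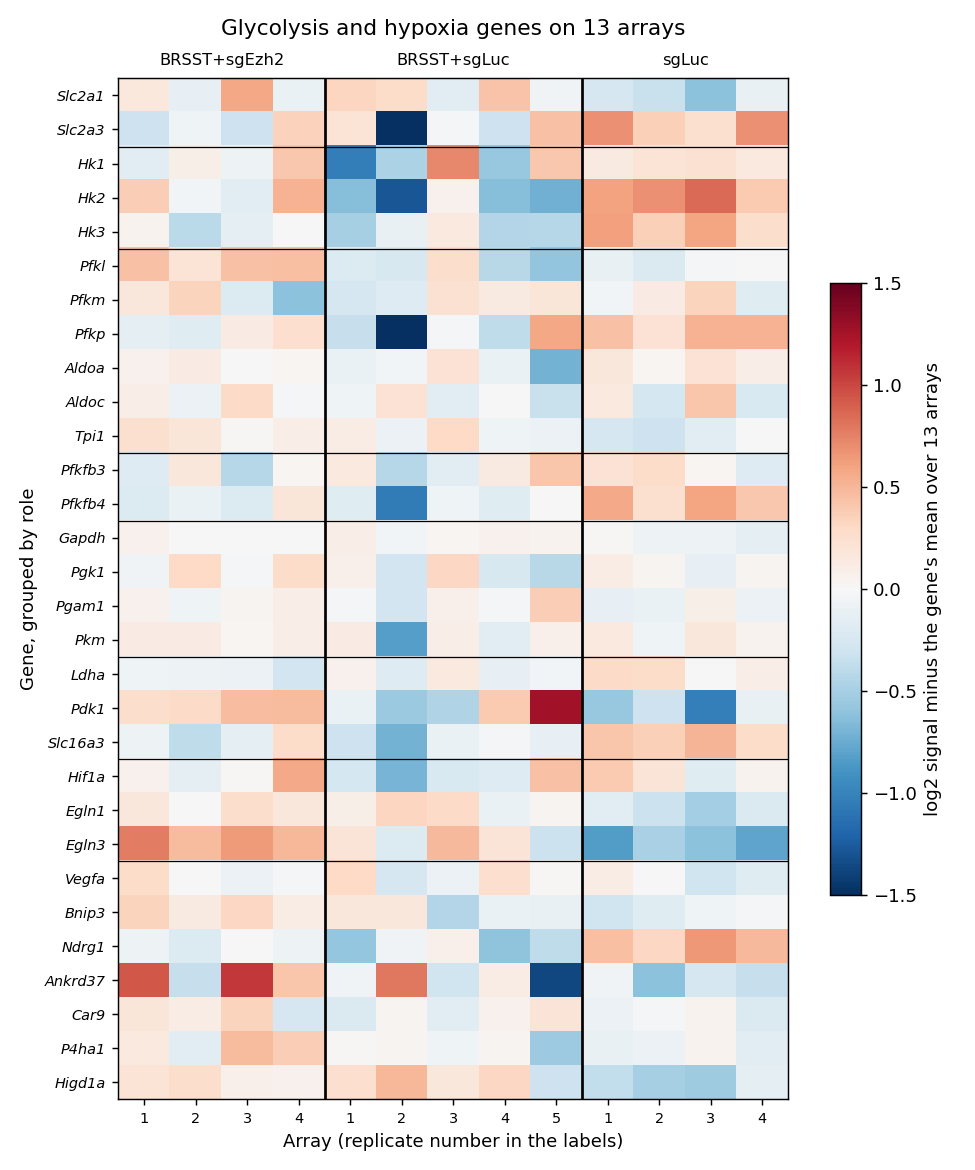
Signal of the 30 members (rows) on the 13 arrays (columns), with BRSST+sgEzh2, BRSST+sgLuc and sgLuc from left to right, as the difference from the gene's mean over all arrays (log2, colour scale, with values past its ends in the end colours). BRSST+sgLuc replicate 2 was the lowest of its group for 13 of 29 tested members.

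For BRSST+sgEzh2 against sgLuc, 5 of 29 members passed (17.2%), beside 9.37% of all genes. Those 5 were Egln1, Egln3 and Higd1a, which were higher (5.51% of all genes were), and Hk3 and Ndrg1, which were lower (3.86% of all genes were). The groups did not overlap for 11 of 29 members (37.9%), against 23.3% of all genes. Of these, 7 were higher (14.2% of all genes were): Pfkl, Tpi1, Pdk1, Egln1, Egln3, Bnip3 and Higd1a. The other 4 were lower (9.06% of all genes were): Hk3, Pfkfb4, Ldha and Ndrg1. At an unadjusted p below 0.05 there were 14 members (48.3%), against 24.3% of all genes, and at an adjusted p below 0.01 there was 1, Egln3, against 3.75% of all genes. The median difference was 0.06, against 0.02 over all genes. Leaving out 1 array at a time gave 1 to 5 higher and 0 to 4 lower members. The share of all genes that passed in those fits is not given here.

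In BRSST+sgEzh2 against BRSST+sgLuc, whose groups differ by label in the added guide alone, 0 of 29 members passed, beside 0.783% of all genes (0.67% higher and 0.113% lower). At an unadjusted p below 0.05 there were 4 members (13.8%), beside 13.9% of all genes, so their number was that of the background. These were Hk2, Pfkl, Egln3 and Bnip3. The groups overlapped for every member, while 3.53% of all genes did not overlap (2.52% higher and 1.01% lower). Of the 29, 22 (75.9%) had the higher mean in BRSST+sgEzh2, against 52.6% of all genes, and the median difference was 0.21, against 0.01. Of the 25 members with an unadjusted p of 0.05 or more, 10 changed sign in at least 1 alternative, so these counts of direction are not firm. The differences ran from -0.12 to 0.81.

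Pfkl, the liver form of phosphofructokinase, came nearest, with signals of 8.88, 8.64, 8.88 and 8.89 in BRSST+sgEzh2, 8.23, 8.20, 8.70, 8.02 and 7.85 in BRSST+sgLuc, and 8.33, 8.22, 8.41 and 8.45 in sgLuc. BRSST+sgLuc replicate 3 alone reached into the BRSST+sgEzh2 range. The difference from BRSST+sgLuc was 0.62 ± 0.15 (95% interval 0.31 to 0.93, limma adjusted p = 0.0641). Hk2 differed by 0.81 ± 0.22 (95% interval 0.34 to 1.29, limma adjusted p = 0.105) and Egln3 by 0.53 ± 0.15 (95% interval 0.20 to 0.86, limma adjusted p = 0.136), and Bnip3 by 0.28 ± 0.13 (limma adjusted p = 0.342). Against sgLuc, Pfkl differed by 0.47 ± 0.15 in BRSST+sgEzh2, without overlap and without passing (limma adjusted p = 0.0738, or 0.022 and 0.0409 without BRSST+sgLuc replicate 3 or 5). Without BRSST+sgLuc replicate 3, which was the highest array of its group for 11 of 29 members (20.8% of all genes), Pfkl, Hk2 and Egln3 passed the threshold against BRSST+sgLuc (limma adjusted p = 0.00613, 0.0148 and 0.0296).

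**Figure D4:**
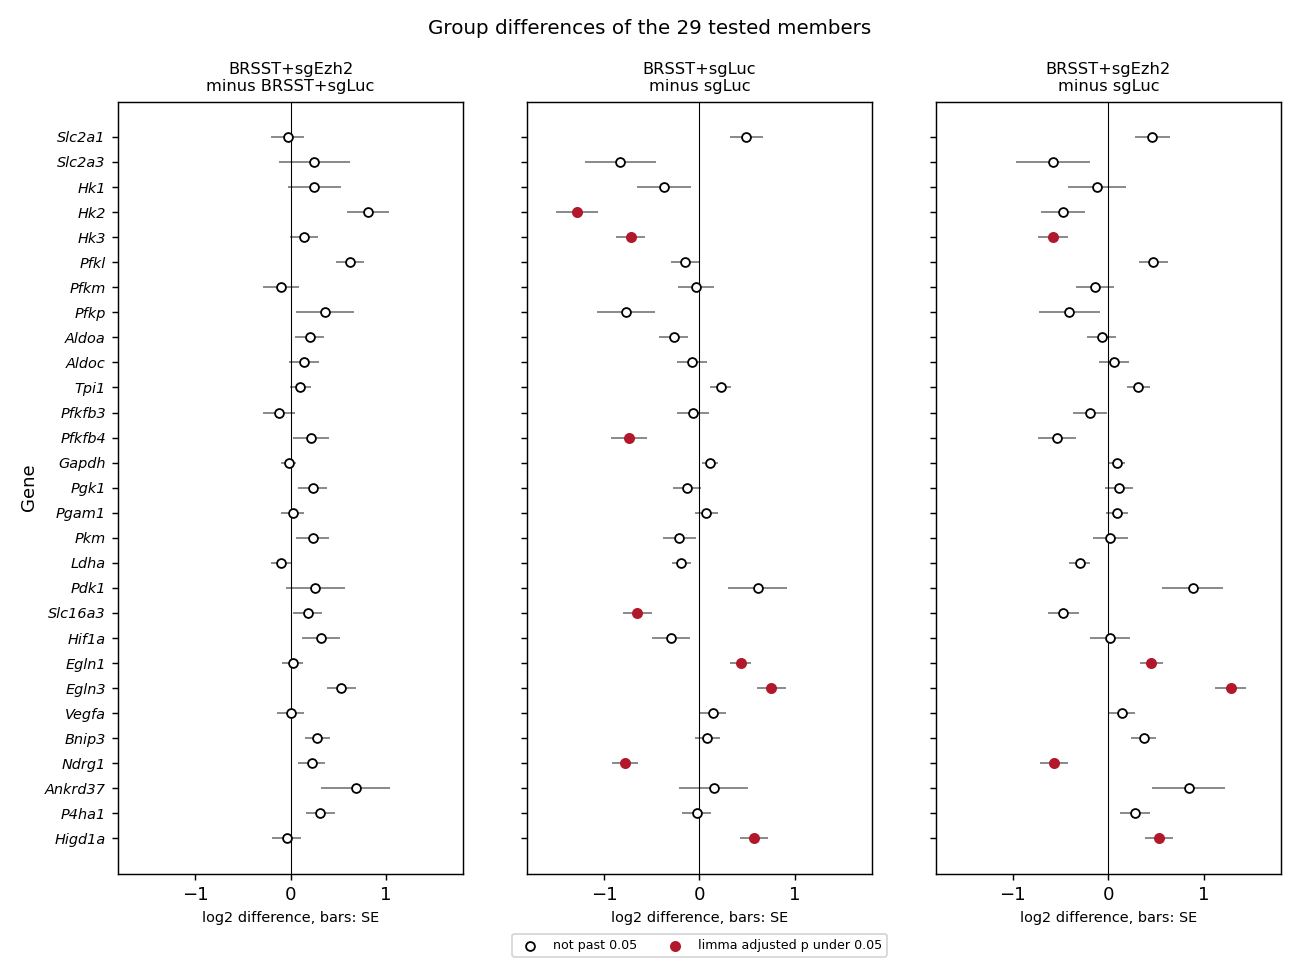
Log2 difference between groups (x axis, bars are SE) for the 29 tested members (y axis), in BRSST+sgEzh2 minus BRSST+sgLuc, BRSST+sgLuc minus sgLuc and BRSST+sgEzh2 minus sgLuc from left to right. Filled points passed the threshold: 0, 8 and 5 members in the order of the panels.

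The members varied most within BRSST+sgLuc. The median of their SDs came to 0.16 for BRSST+sgEzh2 arrays, 0.30 for BRSST+sgLuc arrays and 0.15 for sgLuc arrays, against 0.19, 0.25 and 0.15 over all genes tested. BRSST+sgLuc had the lowest mean of the 3 groups for 15 of 29 members (51.7%, against 36.0% of all genes), and BRSST+sgEzh2 had it for 3 (10.3%, against 22.8%). Within BRSST+sgLuc, replicate 2 was lowest for 13 of 29 members and replicate 5 for 9, against 31.3% and 26.2% of all genes. Within BRSST+sgEzh2, replicate 2 was lowest for 14 of 29 members, against 21.9% of all genes. Without BRSST+sgLuc replicates 2 and 5 together, an alternative chosen after the data were seen, 0 members passed in BRSST+sgEzh2 against BRSST+sgLuc. In that fit 3 members were higher and 7 lower in BRSST+sgLuc against sgLuc, and 6 were higher and 6 lower in BRSST+sgEzh2 against sgLuc. The share of all genes that passed in that fit is not given here.

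Other genes of these pathways were taken in 6 lists. In BRSST+sgLuc against sgLuc, 5 of 14 other glycolysis genes, 2 of 10 of pyruvate entry, 2 of 5 of the pentose phosphate pathway, 4 of 8 of glycogen, 1 of 5 hypoxia factors and 2 of 14 hypoxia targets passed in either direction, against 22.5% of all genes. Their median differences in BRSST+sgLuc against sgLuc were 0.1 for other glycolysis genes, 0.23 for pyruvate entry, -0.21 for the pentose phosphate pathway, -0.35 for glycogen, 0.18 for hypoxia factors and -0.01 for hypoxia targets, against 0.01 over all genes. Of 14 tested of 25 other glycolysis genes, 0 passed in BRSST+sgEzh2 against BRSST+sgLuc, 2 were higher and 3 lower in BRSST+sgLuc against sgLuc, and 2 were higher and 2 lower in BRSST+sgEzh2 against sgLuc. Fbp1, a phosphatase of the reverse pathway that makes glucose, measured 9.10, 9.08, 8.20 and 8.94 in BRSST+sgEzh2, 8.78, 8.73, 8.92, 8.23 and 8.47 in BRSST+sgLuc, and 6.50, 7.43, 6.51 and 7.32 in sgLuc, with every BRSST array above every sgLuc array. It was 3.23-fold higher in BRSST+sgLuc (log2 1.69 ± 0.24, limma adjusted p = 0.000433) and 3.71-fold higher in BRSST+sgEzh2 (1.89 ± 0.25, limma adjusted p = 0.000382) than in sgLuc. Slc2a9, a transporter of urate, was higher by 0.68 ± 0.19 in BRSST+sgLuc (limma adjusted p = 0.0212) and by 1.26 ± 0.20 in BRSST+sgEzh2 (limma adjusted p = 0.00168). Slc2a6, a sugar transporter of the lysosome, measured 7.74, 7.77, 8.17 and 8.0 in BRSST+sgEzh2, 7.17, 7.81, 8.10, 7.87 and 7.74 in BRSST+sgLuc, and 9.15, 8.88, 9.25 and 9.20 in sgLuc, again without overlap between BRSST and sgLuc arrays. It was 2.61-fold lower in BRSST+sgLuc (log2 -1.38 ± 0.17, limma adjusted p = 0.000139) and 2.3-fold lower in BRSST+sgEzh2 (-1.20 ± 0.17, limma adjusted p = 0.000731). Adpgk, an ADP-dependent glucokinase, fell too (-1.56 ± 0.29 in BRSST+sgLuc, limma adjusted p = 0.00212, and -1.23 ± 0.30 in BRSST+sgEzh2, limma adjusted p = 0.0208, which ended without BRSST+sgEzh2 replicate 2 or sgLuc replicate 1, 2 or 3, with p up to 0.0729). The lactate and pyruvate transporter Slc16a7 fell in BRSST+sgLuc (-1.36 ± 0.35, limma adjusted p = 0.013). It lay below the array median on 2 of 4 BRSST+sgEzh2, 3 of 5 BRSST+sgLuc and 0 of 4 sgLuc arrays. Fbp1 and Slc2a9 lay below it on 2 of 4 and 3 of 4 sgLuc arrays, and on 0 arrays of either BRSST group. The differences of these 3 genes thus involve low signals.

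For pyruvate entry into mitochondria, 10 of 12 genes were tested. Of these, 2 rose in BRSST+sgLuc against sgLuc, and 0 passed in the other comparisons. The pyruvate carrier subunit Mpc1 rose by 0.66 ± 0.14 (limma adjusted p = 0.00576). The pyruvate dehydrogenase component Pdhx rose by 0.61 ± 0.18 (limma adjusted p = 0.0285). The Pdhx call ended without BRSST+sgLuc replicates 1 or 4 or sgLuc replicates 1, 3 or 4, each alone (limma adjusted p up to 0.0998). In BRSST+sgEzh2 against sgLuc, Pdhx differed by 0.63 without passing (limma adjusted p = 0.0574). It passed there without BRSST+sgEzh2 replicate 3, BRSST+sgLuc replicate 1 or BRSST+sgLuc replicate 2 (limma adjusted p = 0.0453, 0.0413 and 0.0208). Of 5 tested pentose phosphate genes, Pgd and Rpe fell in BRSST+sgLuc against sgLuc (-0.55 ± 0.15 and -0.45 ± 0.14, limma adjusted p = 0.0181 and 0.0359), and 0 passed in the others. Pgd, the dehydrogenase of phosphogluconate, did not pass without sgLuc replicate 1 (limma adjusted p = 0.0555) or with the Y-linked class as a block (limma adjusted p = 0.0641). Rpe, the ribulose phosphate epimerase, did not pass without BRSST+sgLuc replicates 2 or 4 or sgLuc replicates 1, 2 or 3 (limma adjusted p up to 0.109). Rpe also missed the threshold with equal array medians (limma adjusted p = 0.0685) or with only these groups in the fit (limma adjusted p = 0.0524). In BRSST+sgEzh2 against sgLuc, Rpe differed by -0.45 without passing (limma adjusted p = 0.0738). Of 8 tested glycogen genes, Gyg rose and Gys1, Ppp1r3b and Pygb fell in BRSST+sgLuc against sgLuc, where Gys1, the glycogen synthase of muscle and most tissues, fell by 0.68 ± 0.15 (limma adjusted p = 0.00612). Gyg, the glycogenin that primes glycogen, rose by 0.52 ± 0.12 (limma adjusted p = 0.00678). Ppp1r3b, a subunit that targets a phosphatase to glycogen, differed by -0.74 ± 0.25 (limma adjusted p = 0.0457). Of the 13 fits that left out 1 array, it kept its call only in that without BRSST+sgLuc replicate 5 (limma adjusted p up to 0.13 in the others). In BRSST+sgEzh2 against sgLuc, Ppp1r3b differed by -0.83 without passing (limma adjusted p = 0.0633, or 0.0206 and 0.0125 without BRSST+sgLuc replicate 2 or 5).

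Pygb, the brain form of glycogen phosphorylase, was the 1 of the 8 glycogen genes that passed in BRSST+sgEzh2 against BRSST+sgLuc. It measured 8.37, 8.78, 8.42 and 8.44 in BRSST+sgEzh2, 7.65, 7.71, 8.16, 7.38 and 7.72 in BRSST+sgLuc, and 8.53, 8.46, 8.34 and 8.47 in sgLuc. It was low only in BRSST+sgLuc. The difference was 0.78 ± 0.14, or 1.72-fold (limma adjusted p = 0.0205), and it ended without BRSST+sgEzh2 replicates 2 or 4 or BRSST+sgLuc replicates 1 or 4, each alone (limma adjusted p from 0.0535 to 0.0693), and with only these groups in the fit (limma adjusted p = 0.122). In BRSST+sgLuc against sgLuc it was -0.73 ± 0.14 (limma adjusted p = 0.00289).

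Hif3a, a HIF family member that in part opposes the other HIF proteins, was the 1 gene of 5 tested hypoxia factors that passed, and it passed in every comparison. Its signals were 8.70, 8.39, 8.41 and 8.71 in BRSST+sgEzh2, 7.06, 7.03, 7.22, 7.69 and 6.69 in BRSST+sgLuc, and 6.51, 6.47, 6.75 and 6.71 in sgLuc. All BRSST+sgEzh2 arrays lay far above all others. It lay below the array median on 4 of 5 BRSST+sgLuc and 4 of 4 sgLuc arrays, so it entered the test chiefly through the BRSST+sgEzh2 arrays. It was 2.67-fold higher in BRSST+sgEzh2 than in BRSST+sgLuc (log2 1.42 ± 0.17, limma adjusted p = 0.000883, or 0.000634 with no filter). Against sgLuc it was 3.85-fold higher in BRSST+sgEzh2 (1.95 ± 0.17, limma adjusted p = 1.09e-05). It was higher by 0.53 ± 0.17 in BRSST+sgLuc than in sgLuc (limma adjusted p = 0.0344), which ended without BRSST+sgLuc replicates 1, 3 or 4 or sgLuc replicates 1, 2 or 4, each alone (limma adjusted p up to 0.0972), and with only these groups in the fit (limma adjusted p = 0.061). Of 14 tested other hypoxia targets, 0 passed in BRSST+sgEzh2 against BRSST+sgLuc, and Cited2, a transcriptional co-regulator that limits HIF activity, rose in both BRSST groups over sgLuc (0.55 ± 0.09 in BRSST+sgLuc, limma adjusted p = 0.00121, and 0.54 ± 0.10 in BRSST+sgEzh2, limma adjusted p = 0.00314). Ak4, a mitochondrial adenylate kinase, rose in BRSST+sgLuc (0.76 ± 0.20, limma adjusted p = 0.015).

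**Figure D5:**
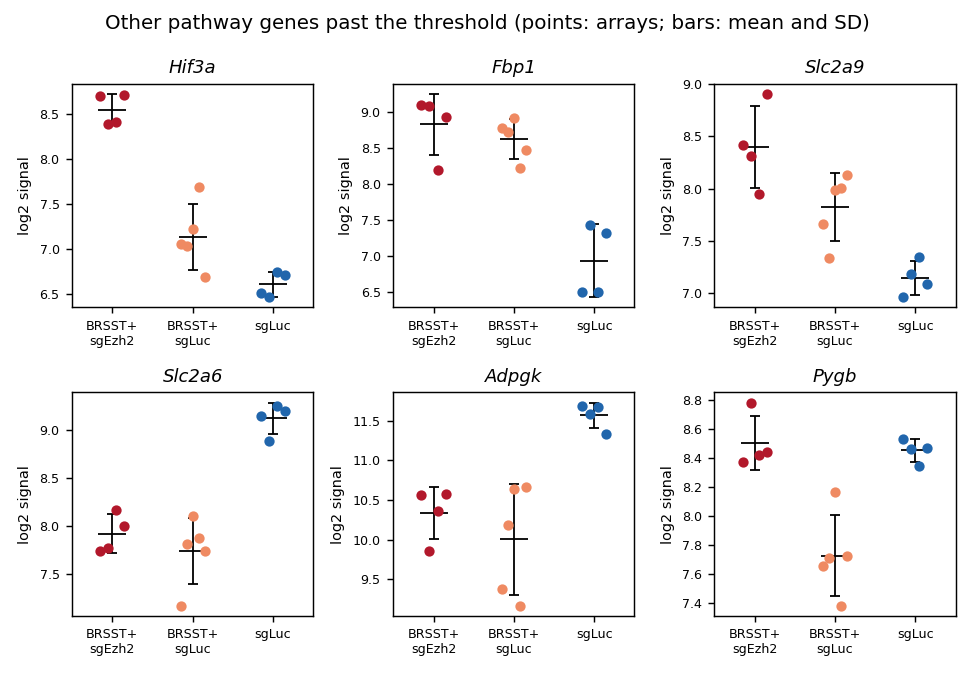
Log2 signal (y axis) on each array for pathway genes outside the 32 that are named above, with BRSST+sgEzh2, BRSST+sgLuc and sgLuc from left to right. Points are arrays, and bars are the mean and SD. Hif3a was highest in BRSST+sgEzh2, Fbp1 was higher in both BRSST groups than in sgLuc, and Slc2a6 was lower in both.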

How the data were processed

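Per the submitters' processing notes, the authors made the deposited values with R 3.5.01 and oligo. The background correction, the normalization and the probe annotation's build were not given in the sources used here. The deposited table holds log2 signals, 1 per row and array, a scale inferred from their range. Per the labels' protocols, 2 ng of RNA was amplified with 10 PCR cycles before in vitro transcription, which can distort large differences. For arrays, which lack a read depth, precision is limited by how many there are.

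The table had 22203 rows, of which 19572 carried 1 gene symbol and 2631 carried none. Of 19505 symbols, 55 had more than 1 row, and the row of highest mean was used. All 3 groups were fitted together by lmFit and eBayes of limma 3.58.1 (R 4.3.3), without covariates and with Benjamini-Hochberg adjustment over 10601 genes and a threshold of 0.05. The procedure was tested on simulated data with independent normal noise and the same SD of a gene in every group. The spread of the real groups differed, so that test does not cover these conditions. Ezh2 also had an exact permutation test.

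The members, the pathway and marker lists and the tests were chosen with earlier results of these data known. Members past the threshold in any comparison, and the 2 of lowest p where none passed, have their value on every array. Of each pathway list, up to 4 genes past the threshold per comparison, or the 1 of smallest p, were taken, and some of the latter are not described.

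Promoter windows are RefSeq's on GRCm38.p6. Alternatives changed the filter (none, or the 75th percentile), normalization, variance model, weights, blocks, groups fitted and threshold, and left out each array in turn. A fit without BRSST+sgLuc replicates 2 and 5 together, and fits of the high or the low Y-linked class alone, were chosen after seeing the data. Python 3.11.15 with matplotlib 3.10.9 drew the figures.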

Additional observations from a re-analysis of the deposited data

Results flagged for a closer look

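In 5 of the 90 sets of a member's arrays within a group, 1 array stood apart from the rest by Dixon's test, which chance gives in about 1 set in 20, or 4.5 here. Pfkl measured 8.64 on BRSST+sgEzh2 replicate 2, against 8.88 on the nearest array of the group. Ldha measured 9.99 on BRSST+sgEzh2 replicate 4, against 10.19 on the nearest. On BRSST+sgLuc replicate 2, Pfkfb4 measured 7.3 and Pkm 11.32, against 8.17 and 11.99 on the nearest arrays. P4ha1 measured 7.49 on BRSST+sgLuc replicate 5, against 7.98 on the nearest.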

How the results depend on the processing

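Leaving out each array in turn gave 3 to 4 higher and 5 to 6 lower members in BRSST+sgLuc against sgLuc. The same fits gave 1 to 5 higher and 0 to 4 lower members in BRSST+sgEzh2 against sgLuc, and 0 to 3 higher and 0 to 0 lower in BRSST+sgEzh2 against BRSST+sgLuc. Array quality weights gave 3 higher members in BRSST+sgEzh2 against BRSST+sgLuc, 5 higher and 10 lower in BRSST+sgLuc against sgLuc, and 9 higher and 7 lower in BRSST+sgEzh2 against sgLuc. In BRSST+sgEzh2 against sgLuc, fitting only the 2 groups compared gave 6 higher and 6 lower, as did leaving out BRSST+sgLuc replicates 2 and 5 together. The high Y-linked class alone gave 3 higher members in BRSST+sgEzh2 against BRSST+sgLuc and 6 lower in BRSST+sgEzh2 against sgLuc. That class held only 2 BRSST+sgEzh2, 2 BRSST+sgLuc and 4 sgLuc arrays. No sgLuc array was in the low class, so that class allowed no comparison with sgLuc. At an adjusted p of 0.01, BRSST+sgLuc against sgLuc kept 5 of 29 members (17.2%), against 10.4% of all genes. These were Egln3, which was higher, and Hk2, Hk3, Slc16a3 and Ndrg1, which were lower. BRSST+sgEzh2 against sgLuc kept 1 higher and 0 lower. The cause of these moves was not tested. Apart from these and the replicate block, the alternatives stayed within 1.5 times the count. The share of all genes that passed in each alternative fit is not given here. The counts of those fits are therefore not a result about the members alone.

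No pairing by replicate number was seen: deviations of same-numbered arrays correlated between -0.176 and 0.192, and 1, 0 and 1 of 8 arrays correlated best with their own number. Deviations from the means of so few arrays cannot exclude a pairing. The replicate block gave 1 lower member in BRSST+sgEzh2 against sgLuc. Signal over background was not among the values used, so no limit of detection can be set for low genes such as Pdk1, Hif3a and Car9.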
